A study of Mus musculus with 4 samples.

Results

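The 9 genes described here encode the transcription factor p53 (Trp53), its paired inhibitors (Mdm2, Mdm4), the enzymes that act on them (Usp7, Ppm1d), the p53 target p21 (Cdkn1a) and 3 kinases of the DNA damage checkpoint (Atm, Atr, Chek1). They were chosen by name, after the antibody comparison of these same libraries, in which Mdm4 was lower, had been examined. Every value of the Runx1 and IgG contrast is therefore a description of these genes. Where a gene's place in the list from the fit over all genes is given, it comes from the values behind the choice and supports nothing further. All 9 were found among the 55573 genes of the count table, and all 9 were among the 12401 genes that passed a filter on low counts.

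p53 stops the cell cycle or starts cell death after DNA damage, and it is held in check by MDM2, which marks it for destruction, and by MDM4 (MDMX), which blocks its activity and pairs with MDM2. USP7 removes ubiquitin from p53, MDM2 and MDM4, and PPM1D (WIP1) removes the phosphates that damage kinases place on p53. ATM responds to broken DNA and ATR to stalled replication, CHEK1 carries the signal of ATR to the cell cycle, and p21 inhibits the cyclin-dependent kinases. Mouse embryos that lack Mdm2 or Mdm4 die unless p53 is removed too, and p53 activity limits blood stem and progenitor cells.

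The libraries came from RNA immunoprecipitation sequencing (RIP-seq), in which RNA bound to a protein is pulled down with an antibody and sequenced, with non-specific IgG as the background. All 4 libraries used wild-type C57BL/6 embryos at embryonic day 10.0, from whose caudal part Cd31+ cells had been sorted (Cd31, or Pecam1, sits on the surface of endothelium and of some blood cells). Replicates 1 and 2 were made with the Runx1 antibody and replicates 1 and 2 with IgG. The labels do not say how many embryos or cells went into a library or whether the replicates were separate sorts, so the spread given here may be technical.

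Gene counts per library ran from 1675488 (Runx1 replicate 1) to 3843318 (IgG replicate 1), so that 3 counts correspond to 0.781 to 1.79 CPM (a gene's count scaled to the sum of gene counts in its library). All 12 endothelial markers examined were detected, with a summed level of 1361 to 1665 CPM. Markers of other cells were detected too: the summed level of 8 mesenchymal markers was 916 to 986 CPM, that of 9 blood markers 269.5 to 376 CPM and that of 6 epithelial markers 115 to 165 CPM, with ranges that overlapped between the antibodies. Those of 8 erythroid markers (845 and 868 CPM with Runx1, 488 and 475 with IgG), 7 macrophage markers (127 and 211 against 91.8 and 91.1) and 8 neural markers (661 and 525 against 444 and 407) were higher in both Runx1 libraries. Few genes carried the last 2 sums. Of the macrophage markers, Mrc1 was the highest in Runx1 replicate 1 and in both IgG libraries, and Csf1r in Runx1 replicate 2. Mrc1 stood at 76.4 and 35.0 CPM with Runx1 and at 72.1 and 62.9 with IgG. Csf1r stood at 11.9 and 144 CPM with Runx1 and at 12.5 and 9.67 with IgG. Lyz2 stood at 35.8 and 0 CPM against 0.26 and 8.06. Of the neural markers, Nes stood at 485 and 388 against 303 and 311. Cd68 was at 0 in both Runx1 libraries (1.04 and 4.83 CPM with IgG), and Dcx stood at 27.5 and 5.30 against 41.6 and 25.8. No marker in these lists was at 0 in all libraries, and the part of these cells in the results below was not tested. In such bulk pull-down libraries the number of cells of a type, the RNA per cell and the recovery of an RNA by the antibody cannot be told apart.

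Mdm2 and Mdm4 are paralogs whose proteins end in a RING domain, through which they pair. The ends of their coding sequences are shown because a count for one gene is only informative if reads can be told from those of the other. Both stretches are on the minus strand of mm10, read 5′ to 3′ and ending with the stop codon, from chr10:117690210-117690329 (Mdm2, last exon) and chr1:132991656-132991775 (Mdm4, last exon), with capitals for bases that are identical when the stop codons are aligned without gaps.
Mdm2: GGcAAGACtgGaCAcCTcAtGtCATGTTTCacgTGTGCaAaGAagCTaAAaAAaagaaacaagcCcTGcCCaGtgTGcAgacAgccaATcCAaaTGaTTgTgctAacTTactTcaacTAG
Mdm4: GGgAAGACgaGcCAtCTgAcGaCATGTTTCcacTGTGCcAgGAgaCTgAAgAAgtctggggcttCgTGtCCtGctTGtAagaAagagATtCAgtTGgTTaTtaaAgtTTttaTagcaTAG

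Over these 120 bases 62 were identical (51.7%), and the longest identical run was 8 bases. Searched with the longest transcript of each gene only, no transcript of another gene held a stretch of at least 200 bases at 95% identity to Mdm4, Mdm2, Ppm1d, Atm, Atr or Chek1. A processed pseudogene, Mdm4-ps, came near, with 94.1% identity over 4184 bases, and it had 0 counts in all 4 libraries. The longest transcript of Trp53 (3275 bases), annotated without a coding sequence, shares 353 bases at 97.7% with Trp53-ps, also at 0 counts. The coding transcripts of Trp53 were not searched. Usp7 shares 316 bases at 95.3% with AC110375.1 (0 and 0 counts with Runx1, 1 and 2 with IgG). Cdkn1a shares 262 bases with AC167363.2, a gene model on the opposite strand with 0 counts. Exons of other Atr transcripts overlap those of 3 other genes, 2 of them antisense (726 and 462 shared bases), and since the strand setting of the counting is not given in the sources used here, its value is uncertain to that extent.

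Mdm4 RNA was less abundant in both Runx1 libraries than in either IgG library. It stood at 482 and 419 CPM with the Runx1 antibody (807 and 791 counts) and at 848 and 1071 CPM with IgG (3259 and 2659 counts). The means were 450.4 ± 44.2 CPM (SD, n = 2) and 960 ± 158 CPM (SD, n = 2), 2.13 times more with IgG. The fitted log2 fold change was -1.12 ± 0.16 (SE, edgeR with TMM scaling, which sets the typical gene near 0). No Runx1 library came near an IgG library, and the 2 Runx1 libraries lay closer together than the 2 IgG libraries did. Mdm4 was the 1 gene of the 9 in the edgeR list of lower genes at a false discovery rate of 0.05, a list that held 0.339% of all tested genes. None of the 9 was in the list of higher genes, which held 0.306%. Leaving out any 1 library kept the log2 fold change of Mdm4 between -1.29 (without IgG replicate 1) and -0.96 (without IgG replicate 2). With the replicate number as a block the log2 fold change of Mdm4 was -1.11 ± 0.17 (SE), and the list of lower genes then held 0 genes. Mdm4 was also not in the list once length and GC were corrected for, as given below.

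Mdm2 RNA, in contrast, gave no clear order of the antibodies. It stood at 68.0 and 61.5 CPM with Runx1 (114 and 116 counts) and at 80.7 and 31.8 CPM with IgG (310 and 79 counts). The Runx1 libraries lay between the 2 IgG libraries, which differed from each other 2.53-fold (exact 95% interval 1.97 to 3.29, counting error only). The fitted log2 fold change of 0.17 ± 0.49 (SE) went to -0.36 without IgG replicate 2 and to 0.98 without IgG replicate 1. Mdm4 counts exceeded Mdm2 counts 7.08- and 6.82-fold in the Runx1 libraries and 10.5- and 33.7-fold in the IgG libraries, without regard to length. Between the IgG libraries Mdm2 was higher in replicate 1, and Mdm4 was 1.26-fold higher in replicate 2.

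Trp53 RNA was higher in both Runx1 libraries. It stood at 69.2 and 123 CPM with Runx1 (116 and 232 counts) and at 34.3 and 56.8 CPM with IgG (132 and 141 counts). The groups did not overlap, but replicate 2 exceeded replicate 1 in both, by 1.78-fold with Runx1 (exact 95% interval 1.41 to 2.24) and by 1.65-fold with IgG (1.30 to 2.11), intervals that cover counting error only. The fitted log2 fold change was 1.06 ± 0.44 (SE), or 0.55 without Runx1 replicate 2. Cdkn1a, which p53 activates, stood at 19.7 and 42.9 CPM with Runx1 (33 and 81 counts) and at 19.0 and 10.1 CPM with IgG (73 and 25 counts). The lower Runx1 library and the higher IgG library were almost level. The log2 fold change of Cdkn1a was 1.07 ± 0.69 (SE), and 0.38 without Runx1 replicate 2.

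The enzymes that act on p53 and its inhibitors were Usp7, with the most even values of the 9 genes, and Ppm1d, with the least even. Usp7 stood at 474 and 464 CPM with Runx1 (795 and 876 counts) and at 531 and 502 CPM with IgG (2040 and 1245 counts). All 4 values lay within a narrow band, with a log2 fold change of -0.17 ± 0.15 (SE), and both replicate ratios had an interval that included 1. Ppm1d stood at 57.3 and 6.89 CPM with Runx1 (96 and 13 counts) and at 23.4 and 6.04 CPM with IgG (90 and 15 counts). Replicate 1 was high and replicate 2 low with either antibody, by 8.32-fold with Runx1 (exact 95% interval 4.64 to 16.2, counting error only) and by 3.87-fold with IgG (2.23 to 7.21). Its log2 fold change of 1.07 ± 1.00 (SE) changed sign with 1 library left out, to -1.16 without Runx1 replicate 1, and was 0.40 without IgG replicate 2 and 2.34 without IgG replicate 1.

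Of the 3 kinase genes of the checkpoint, Chek1 alone had both Runx1 values below both IgG values, and none was in an edgeR list with TMM scaling. Atm stood at 43.6 and 52.5 CPM with Runx1 (73 and 99 counts) and at 47.4 and 61.2 CPM with IgG (182 and 152 counts). These values overlapped, with a log2 fold change of -0.20 ± 0.42 (SE). Atr stood at 108 and 51.4 CPM with Runx1 (181 and 97 counts) and at 96.3 and 103 CPM with IgG (370 and 255 counts). Runx1 replicate 1 was the highest of the 4 Atr values and Runx1 replicate 2 the lowest, 2.10-fold apart (exact 95% interval 1.63 to 2.72, counting error only), and the log2 fold change of -0.35 ± 0.40 (SE) went from -1.01 without Runx1 replicate 1 to 0.066 without Runx1 replicate 2. Chek1 stood at 41.8 and 23.3 CPM with Runx1 (70 and 44 counts) and at 56.7 and 45.5 CPM with IgG (218 and 113 counts). Both Runx1 values of Chek1 were below both IgG values, with a log2 fold change of -0.69 ± 0.49 (SE), or -1.19 without Runx1 replicate 1 and -0.35 without Runx1 replicate 2.

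**Figure D1:**
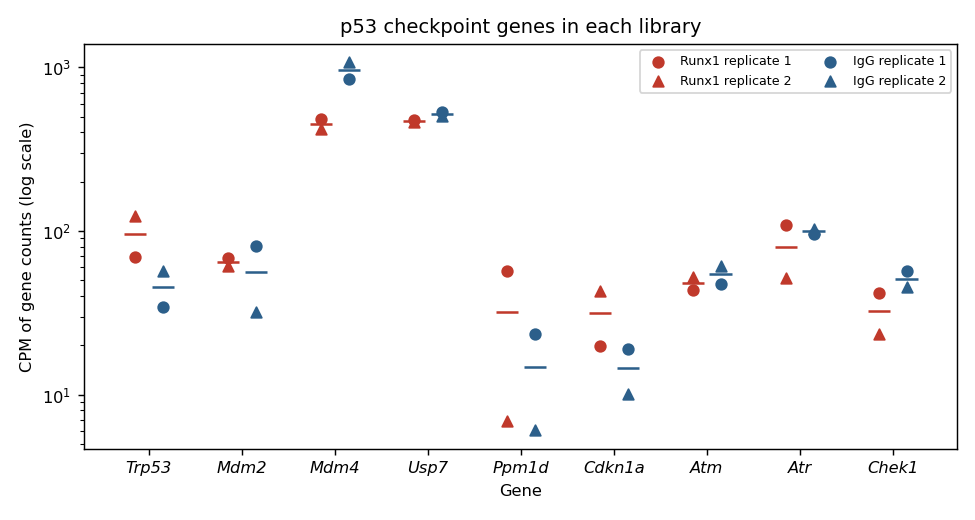
Level of each of the 9 genes in each library, in CPM of gene counts on a log scale; circles are replicate 1, triangles replicate 2, and bars the mean of 2 libraries. Mdm4 shows the clear gap between antibodies (419 to 482 CPM with Runx1, 848 to 1071 with IgG), Usp7 is level, and Ppm1d splits by replicate.

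Across the 9 genes, 3 had both Runx1 libraries below both IgG libraries (Mdm4, Usp7 and Chek1), where 21.3% of all tested genes did. The opposite held for 2 (Trp53 and Cdkn1a), where 24.1% of all tested genes did. The median log2 fold change of the 9 was -0.17, with 4 above 0 and 5 below, and that of all tested genes was 0.027. Replicates of 1 group differed by more than 2-fold in 16.8% (Runx1) and 11.3% (IgG) of the 7460 tested genes with a mean of at least 20 CPM. For the 9 genes that was so for Ppm1d with both antibodies, for Cdkn1a and Atr with Runx1, and for Mdm2 with IgG.

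Scaling to spike-in RNAs, synthetic transcripts counted in the same libraries, moved the median of all tested genes to -1.25 and put all 9 genes below 0, Trp53 (-0.19), Ppm1d (-0.28), Cdkn1a (-0.28) and Mdm2 (-1.20) included. Because the same factor scales all genes of a library, places relative to that median could hardly change and add no support. By that measure Mdm4 was the lowest of the 9 at -1.11, followed by Chek1 at -0.72, with Cdkn1a and Ppm1d at 0.97 and Trp53 at 1.07. The directions given above are thus directions relative to the typical gene. Of the 9, 5 (Mdm4, Usp7, Atm, Atr and Chek1) were then in the lower list, which held 31.6% of tested genes. Spike-in counts were few, 434 to 713 per library.

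Levels of different genes were compared per kilobase of the longest protein-coding transcript. With IgG, Mdm4 was the highest (135 ± 22.2 CPM per kb, SD, n = 2), followed by Usp7 (109 ± 4.35), with no overlap between them. Trp53 (24.4 ± 8.51), Mdm2 (17.9 ± 11.0), Chek1 (13.5 ± 2.08) and Atr (12.3 ± 0.56) came next, each overlapping its neighbour in the order. Cdkn1a (6.99 ± 3.03), Atm (5.53 ± 1.00) and Ppm1d (5.08 ± 4.24) were lowest and also overlapped in turn.

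With the Runx1 antibody the order per kilobase began with Usp7 (98.9 ± 1.54 CPM per kb, SD, n = 2), ahead of Mdm4 (63.4 ± 6.22), whose values overlapped those of Trp53 (51.5 ± 20.3). Mdm2 (20.6 ± 1.48), Cdkn1a (15.1 ± 7.89), Ppm1d (11.1 ± 12.3), Atr (9.84 ± 4.94) and Chek1 (8.57 ± 3.44) followed, each overlapping the next, and Atm (4.89 ± 0.64) was last. The place of Mdm4 depends on which of its transcripts is taken. Its annotated protein-coding transcripts run from 467 to 7105 bases, and with the 1914-base transcript that holds its longest coding sequence, the level would be 235 CPM per kb with Runx1 and 501 with IgG.

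Mdm4 lies on chromosome 1 (132959484 to 133030561, minus strand of mm10) and has 14 annotated transcripts, whose reads are summed in 1 gene count. Of the 7105 bases of its longest transcript, 5436 are 3′ untranslated region. The other members lie on chromosomes 9 (Atm, Atr, Chek1), 10 (Mdm2), 11 (Trp53, Ppm1d), 16 (Usp7) and 17 (Cdkn1a). The longest transcripts of Atm (9819 bases), Atr (8102) and Mdm4 were longer than those of 96.9%, 93.8% and 90.2% of tested genes, and their GC contents were low (42.6%, 40.8% and 43.3%). Those of Cdkn1a (2080 bases, 54.4% GC), Ppm1d (2899, 49.1%), Mdm2 (3145, 46.2%) and Trp53 (3275, 53.3%) were shorter than the 3466.5-base median of tested genes. The Trp53 transcript of 3275 bases holds no coding sequence, and the coding transcripts of Trp53 have 1771 to 1867 bases. The length and GC correction and the motif count below used the 3275-base transcript.

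Transcript length moved with the antibody contrast over all genes. The median log2 fold change fell from 0.37 in the decile of tested genes with the shortest transcripts to -0.32 in the decile with the longest. The 4 members with transcripts under the median length had a log2 fold change above 0, and the 5 with longer ones (Chek1, Usp7, Mdm4, Atr and Atm) had one below 0. Atr and Atm lay close to the median of their decile, and Mdm4 lay below it. In the decile of the longest transcripts, which holds these 3, 10.9% of genes had a log2 fold change under -1.

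**Figure D2:**
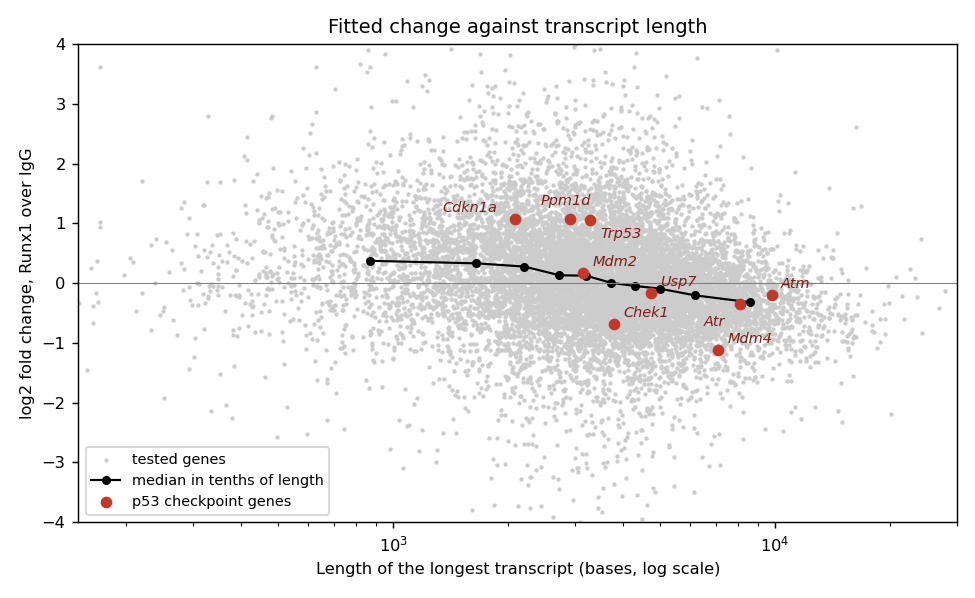
Log2 fold change (Runx1 over IgG) against the length of the longest transcript in bases (log scale), with 1 grey point per tested gene, black points for the median in deciles of length and red points for the 9 genes; 132 genes lie outside the axes. The medians go from 0.37 to -0.32, Atr and Atm lie near them and Mdm4 below.

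When smooth curves in length and in GC were removed from each library, the log2 fold change of Mdm4 was -0.74 ± 0.15 (SE), and Mdm4 was no longer in the edgeR list of lower genes, which then held 4. Usp7 moved to -0.0012 ± 0.15, Atm to 0.30 ± 0.42 and Atr to 0.13 ± 0.37, so that 6 of the 9 were above 0 and 3 below. Trp53 (0.79 ± 0.43), Cdkn1a (0.66 ± 0.66), Ppm1d (0.95 ± 0.98), Mdm2 (0.14 ± 0.48) and Chek1 (-0.48 ± 0.47) kept their side of 0. Mdm4 had the lowest value of the 9 in both fits. The corrected fit took Mdm4 at the 7105 bases of its longest transcript. That fit was not repeated with the 1914-base transcript, whose length falls in a decile with a median log2 fold change of 0.33.

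**Figure D3:**
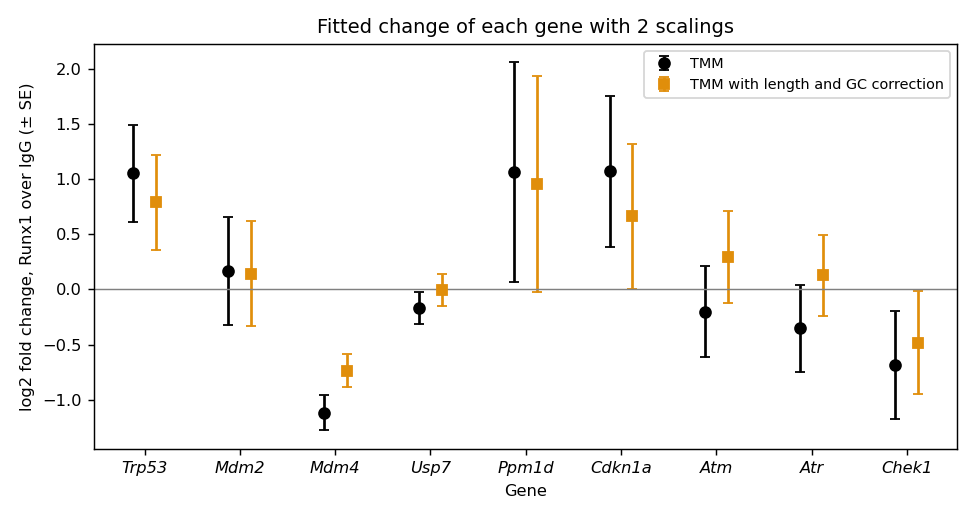
Fitted log2 fold change (Runx1 over IgG) of the 9 genes with its SE as error bars, with TMM scaling (black circles) and with TMM scaling and the length and GC correction (orange squares). Mdm4 goes from -1.12 to -0.74, Usp7 to about 0, and Atm and Atr cross 0; the bars of Ppm1d span about 1 unit to each side.

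RUNX proteins bind DNA at a site whose core is written TGTGGT, which reads as ACCACA on the other strand. Both spellings were counted in the longest transcript of each gene, as letters only. There were 7 matches in Mdm4, 6 in Atr, 4 in Atm, 3 in Usp7, 2 in Ppm1d and in Cdkn1a, 1 in Trp53 and in Chek1, and 0 in Mdm2. At 0.99 matches per kb Mdm4 stood above 70.4% of tested genes, with Cdkn1a at 0.96 and Atr at 0.74, and the other 6 were below the median of 0.70. At least 1 match was found in 85.7% of the 12396 tested genes with a transcript sequence, so that holding one sets no gene apart. In the 1914-base Mdm4 transcript 2 matches fall in the coding sequence, both on the minus strand of mm10, with TGTGGT in capitals, the first from chr1:133011109-133011138 and the second from chr1:132996652-132996681.
Mdm4 coding position 229: catatggtatacTGTGGTggagatcttttg
Mdm4 coding position 716: ctacggatgattTGTGGTttttaaatgaga

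The genes whose pattern over the 4 libraries was most like that of Mdm4 were sought among 4124 protein-coding genes with a mean of at least 50 CPM, by Euclidean distance in centred log2 CPM. The nearest was Uri1, a prefoldin-like protein (127 and 102 CPM with Runx1, 221 and 260 with IgG), at a distance of 0.11. Clk1, a kinase of splicing factors (64.5 and 52.5, 104 and 131 CPM), came next at 0.11, then the insulin receptor gene Insr (80.0 and 69.9, 142 and 161 CPM) at 0.13 and the DNA polymerase theta gene Polq (71.0 and 70.5, 135 and 173 CPM) at 0.14. The median distance of the candidates was 1.18, and the 4 named genes lie below it because they were picked as the nearest. These rest on 4 libraries and share their depth and scaling.

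Around these 9 genes, 6 lists of related genes were described with the members left out. The counts below are to be read against all tested genes, of which 6.88% were above 0 and 7.35% below with an unadjusted edgeR p under 0.05. DESeq2 called 3.11% higher and 4.7% lower of the 7148 genes to which it gave an adjusted p, and limma-voom 0.823% and 0.968% of 12401. With spike-in scaling edgeR called 0.153% higher and 31.6% lower, and 0 higher in each list. The lower calls were then 12 p53 targets, 34 p53 regulators, 22 damage genes, 4 genes of the kinase family, 9 G1 genes and 9 phosphatase genes.

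Of 30 tested p53 target genes (41 listed), 0 rose and 0 fell in the edgeR fit at the 0.05 rate, while unadjusted p was under 0.05 for 3 above 0 and 2 below. DESeq2 and limma-voom each called 1 higher and 0 lower. Their median log2 fold change was -0.016, with 15 above 0 and 15 below. It was unsteady, at -0.60 without Runx1 replicate 1, -0.46 without Runx1 replicate 2 and 0.33 with the libraries thinned to equal depth. Since those fits filtered anew, their medians can cover other target genes than these 30. The 4 with the smallest p were Gtse1, which binds p53 in the late cell cycle (79.4 and 53.5 CPM with Runx1, 12.5 and 7.65 with IgG; log2 fold change 2.67 ± 0.54, edgeR adjusted p = 0.0740), the ribonucleotide reductase gene Rrm2b (2.55 ± 0.89), the kinase gene Plk3 (2.30 ± 0.92) and Trp53i11 (-1.92 ± 0.83).

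Of 61 tested regulators of p53 (65 listed), 0 rose and 0 fell in edgeR, while unadjusted p was under 0.05 for 10 above 0 and 9 below. Calls by DESeq2 were 4 up and 7 down, and those by limma-voom 2 up and 1 down. The median was -0.12 (-0.21 without Runx1 replicate 1, -0.045 without IgG replicate 1). The ubiquitin ligase gene Rbbp6, which binds p53 and RB, stood at 830 and 812 CPM with Runx1 and 481 and 504 with IgG (0.71 ± 0.13, edgeR adjusted p = 0.0615), and after the length and GC correction it rose (log2 fold change 1.31, edgeR adjusted p = 0.0136). The deacetylase gene Sirt1, whose protein acts on p53, stood at 99.7 and 50.3 CPM against 244 and 211 (-1.63 ± 0.34, edgeR adjusted p = 0.0801). Npm1, a nucleolar protein that binds MDM2, stood at 0.54 ± 0.12 and the giant ligase gene Herc2 at -0.59 ± 0.14 on the log2 scale, neither called.

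Among 59 tested sensors and signalling genes of the damage checkpoint (61 listed), 1 rose, 0 fell and 58 did not pass in edgeR, and the median was 0.078 (0.25 without IgG replicate 1, -0.045 without IgG replicate 2, -0.014 without Runx1 replicate 1). Unadjusted p was under 0.05 for 6 above 0 and 6 below, DESeq2 called 4 up and 0 down, and limma-voom 1 up and 0 down. The gene that rose was Smc1a, a cohesin subunit that ATM phosphorylates. It stood at 570 and 652 CPM with Runx1 and at 305 and 301 with IgG (log2 fold change 0.98 ± 0.16, edgeR adjusted p = 0.0429). Its cohesin partner Smc3 (0.60 ± 0.15), the histone gene H2afx, whose product is phosphorylated at breaks (1.54 ± 0.36), and the DNA end-binding gene Xrcc6 (2.20 ± 0.62) did not pass, with edgeR adjusted p from 0.111 to 0.175.

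Of 11 genes for the kinase family of ATM and ATR and its assembly factors, 0 rose, 1 fell and 10 did not pass, with a median of 0.26. That median was 0.89 without IgG replicate 1, 0.11 without Runx1 replicate 2, -0.37 without IgG replicate 2, -0.26 without Runx1 replicate 1 and -0.25 with at least 10 counts asked of every library. Here unadjusted p was under 0.05 for 2 above 0 and 2 below, DESeq2 called 1 up and 1 down, and limma-voom 0 up and 1 down. The one that fell was Smg1, the kinase of nonsense-mediated decay, at 352 and 274 CPM with Runx1 and 729 and 577 with IgG (log2 fold change -1.09 ± 0.19, edgeR adjusted p = 0.0490). Its longest transcript has 15557 bases, and after the length and GC correction it was not called (-0.65, edgeR adjusted p = 0.245), nor with library totals in place of TMM (-1.06, edgeR adjusted p = 0.0552). The helicase genes Ruvbl2 (1.92 ± 0.43) and Ruvbl1 (1.13 ± 0.34), which help assemble these kinases, and the cofactor gene Trrap (-0.34 ± 0.15) did not pass. With the replicate block neither Smc1a (adjusted p = 0.128) nor Smg1 (adjusted p = 0.0910) was called in edgeR.

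Of 24 tested CDK inhibitors and G1 genes (28 listed), 0 rose and 0 fell in edgeR, while unadjusted p was under 0.05 for 3 above 0 and 1 below, DESeq2 called 1 up and 1 down, and limma-voom 1 up and 0 down. Cdk4, a kinase of G1 (1.07 ± 0.22, edgeR adjusted p = 0.0740), came nearest, followed by the E2F partner Tfdp1 (-0.72 ± 0.23), the cyclin gene Ccnd3 (0.62 ± 0.22) and Mycn (0.93 ± 0.40), and the median was -0.038 (-0.16 without Runx1 replicate 1, -0.15 without Runx1 replicate 2, -0.13 without IgG replicate 2, 0.11 without IgG replicate 1). Of 18 phosphatase genes related to Ppm1d or acting beside it, 0 rose and 0 fell in edgeR, while unadjusted p was under 0.05 for 3 above 0 and 3 below, DESeq2 called 2 up and 2 down, and limma-voom 0 up and 1 down. Here Ppp5c (1.69 ± 0.38) and Ppp1ca (127 and 164 CPM against 44.0 and 64.5) were above 0 and Ppm1b (-1.01 ± 0.24) and Ppp6c (-1.45 ± 0.42) below, and the median was -0.14 (-0.32 without Runx1 replicate 1, -0.30 without Runx1 replicate 2).

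**Figure D4:**
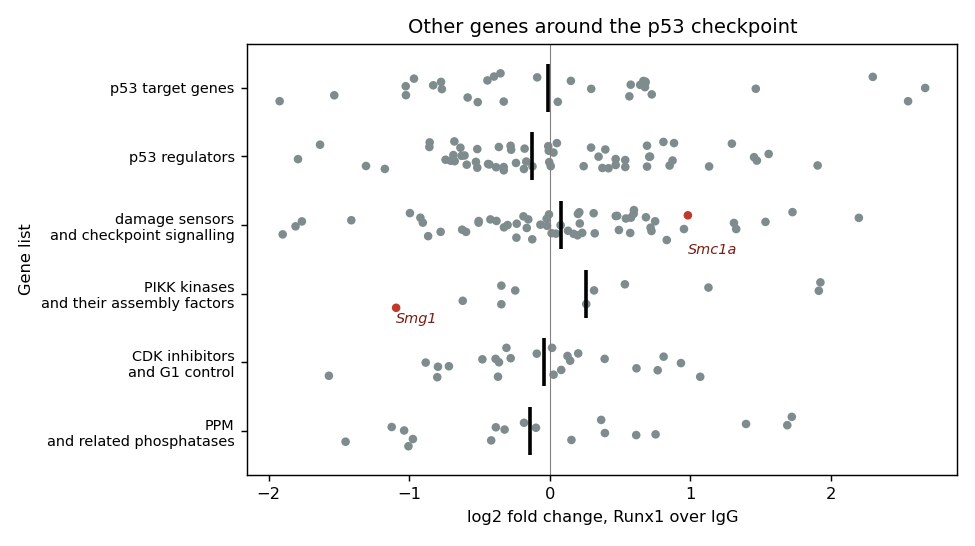
Log2 fold change (Runx1 over IgG) of each tested gene of the 6 lists, 1 point per gene, with a black bar at the list median and red points for genes called by edgeR. The medians lie between -0.14 and 0.26 (the kinase family), and Smc1a (0.98) and Smg1 (-1.09) are the called genes. The medians of the kinase family, the damage genes and the G1 genes change sign with 1 library left out.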

How the data were processed

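RIP-seq libraries from sorted Cd31+ cells, 2 with a Runx1 antibody and 2 with IgG, were grouped by their titles. The authors deposited raw counts per Ensembl gene; Trimmomatic 0.36, STAR 2.7.3a, Salmon 1.1.0 and mm10 appear in the submitters' processing notes with no role given, and for annotation and strand setting the entry is: not given in the sources used here. Of 55573 gene rows, 55480 matched GENCODE M21; the 92 spike-in rows stayed out of library sizes and tests. Without molecular identifiers named in the labels, intervals cover counting error only. All genes were fitted in edgeR 4.0.16 (R 4.3.3; quasi-likelihood, TMM, filterByExpr with minimum count 10 and total 15, two-sided, Benjamini-Hochberg over 12401 genes); SE is the log2 fold change over the root of the test statistic.

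The members and lists were chosen with earlier results of these data known. Named were all members, each list's called genes and the 4 with the smallest p, and the 4 genes nearest to Mdm4 (log2 CPM, prior count 2). Alternatives were DESeq2 1.42.0 and its size factors, library totals, spike-in scaling, other filters, a replicate block, leaving out each library, limma-voom (limma 3.58.1), length and GC offsets (natural splines, 5 degrees of freedom) and thinning. Copies were sought with blastn 2.17.0.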

Additional observations from a re-analysis of the deposited data

How the results depend on the processing

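Called genes numbered 38 higher and 42 lower in the main edgeR fit. They numbered 19 and 3914 with spike-in scaling, 224 and 325 with no low-count filter, 125 and 160 with at least 10 counts in all libraries, 23 and 4 with the length and GC correction, 222 and 336 in DESeq2, and under limma-voom 102 and 120; leaving out 1 library gave 94 to 248 higher and 80 to 352 lower. With a replicate block 2 were higher and 0 lower. Deviations of same-numbered libraries from their group means correlated at 0.0044 across genes, which are not independent. With 2 libraries per group this cannot show whether same-numbered libraries shared a sort, which the labels do not state. With spike-in scaling the log2 fold changes of Smc1a (-0.30) and Rbbp6 (-0.56) changed sign. Over the 14 alternatives Mdm4 stayed below 0 (-2.37 to -0.74) and was not called under the replicate block and the length and GC correction; the causes were not tested. Low counts limit Ppm1d (13 and 15 in the replicate 2 libraries) and Cdkn1a (25 in IgG replicate 2). In fits that leave 1 library in a group, that library is assumed to vary like the other group. The low-count filter was applied anew in them, so the set of tested genes can differ from that of the main fit.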
